A study of Mus musculus with 3 samples.

Results

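Kinesins are the motor proteins that walk along microtubules, and their genes were taken here as every row of the deposited expression table whose symbol starts with Kif followed by a digit or the letter c. The rule found 42 of 24054 genes. It set apart 11 transport kinesins (the Kif1, Kif3, Kif5 and Kif21 genes) and 5 mitotic kinesins (Kif11, Kif15, Kif20a, Kif20b and Kif23). The remaining members were sorted by textbook role into 8 other mitotic genes, 7 ciliary, Hedgehog or axonemal genes and 11 others. RNA was prepared from neurons of the cortex of C57BL/6 mice at embryonic day 17, grown in culture for 7 days. The labels do not state how many embryos were pooled or whether the medium held hormone. The control library was kept at 21% oxygen, the hypoxia library at 0.2% oxygen for 7 hours without added thyroid hormone, and the T3 library under the same low oxygen with 5 nM triiodothyronine, the active thyroid hormone. Values given as a row of 3 are in the order control, hypoxia, T3 library. The comparisons ask what low oxygen, and the hormone added to it, do to these transcripts. Each group held 1 library, so no difference below could be tested against the spread between cultures, and no p-value is given. Values are normalised read counts (CPM, the deposited counts per scaled library size), ratios are ratios of CPM, and the ranges in brackets are exact 95% Clopper-Pearson intervals that cover counting error only.

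Most kinesins turn the energy of ATP into steps towards the plus end of a microtubule, which in an axon points away from the cell body. In neurons they carry synaptic vesicle precursors, mitochondria and receptors outward, while cytoplasmic dynein carries cargo back. Mitotic kinesins build and move the spindle and close cell division, and in a culture of neurons their transcripts can come from dividing progenitors and glia, though several also act in neurons that no longer divide.

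The libraries held 18081904, 17118865 and 22533574 reads. Comparisons were limited to the 12692 genes whose mean over the 3 libraries reached 1 CPM, 38 of the 42 members among them. A gene was called higher or lower when its values, after 1 CPM was added, were at least 2-fold apart. Neuronal markers were high in every library: the 8 markers summed to 4395, 3758 and 3691 CPM. Tubb3, the neuronal tubulin, was at 1771, 873 and 739 CPM. Of the 8, 6 had a log2 ratio of hypoxia to control above 0, where 6922 of 12692 genes compared did. Markers of microglia, endothelium and fibroblasts summed to between 1.10 and 11.9 CPM in each library. The 5 markers of the oligodendrocyte lineage summed to 297, 154 and 162 CPM. All 5 were lower in hypoxia than in control on the log2 scale, where 5770 of 12692 genes compared were. In bulk RNA, fewer cells of a type and less RNA per cell cannot be told apart.

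Kinesin transcripts made up a near constant part of each library. The 42 genes together took 0.935% of reads in control (0.931 to 0.939), 0.943% in hypoxia (0.938 to 0.948) and 0.952% in the T3 library (0.948 to 0.956). The transport kinesins took 91.4% of these kinesin reads in control (91.3 to 91.6), 93.4% in hypoxia (93.2 to 93.5) and 93.1% in the T3 library (93.0 to 93.2). The 5 mitotic kinesins took 0.668% (0.630 to 0.708), 0.491% (0.458 to 0.527) and 0.520% (0.490 to 0.552). The kinesin reads of both hypoxic libraries thus held a larger share of transport motors than those of the control library, and shares within a library do not depend on how libraries are scaled.

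**Figure D1:**
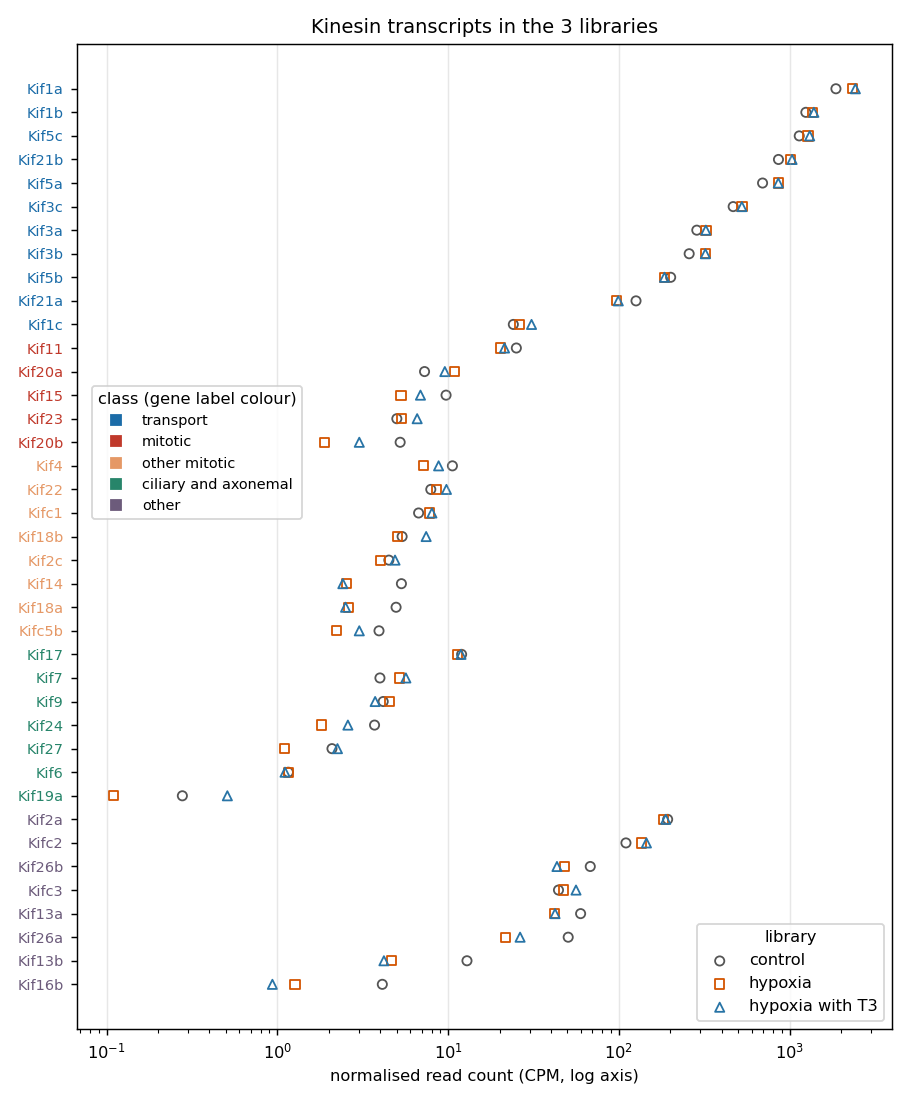
Normalised read counts (CPM, log axis) of the 39 kinesin genes with at least 1 read, with 1 point per library: circles for control, squares for hypoxia and triangles for the T3 library; gene names are coloured by class. The transport kinesins other than Kif1c lie above 97.0 CPM in every library, and the mitotic ones lie at or below 25.1 CPM.

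The transport kinesins were close to their control levels in hypoxia. None of the 11 was called in either direction, and they ranged from -0.37 to 0.33 on the log2 scale with a median of 0.17, beside a median of 0.05 over all genes compared. Over all members compared, 4 of 38 (10.5%) were at least 2-fold lower in hypoxia than in control, where 4.92% of all genes compared were, and 0 of 38 were at least 2-fold higher, where 1.99% were. At 1.5-fold, 9 of 38 (23.7%) were lower, where 13.8% of all genes compared were, and 0 were higher, where 8.46% were. All 9 were outside the transport group. With counts this small the shares are a description. The direction of the transport group depends on scaling. With the deposited values 9 of 11 were above 0, where 6922 of 12692 genes compared were. With libraries scaled to equal sums 5 of 11 were, at a median of 0.00. That scaling moved the median of all genes from 0.05 to -0.10. By the deposited scaling 9 of the 11 stood above the median of all genes. The count was the same with equal sums and median-of-ratios scaling. Rescaling a library shifts all genes nearly alike, so that likeness is built in and is not separate evidence.

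Kif1a, the motor of synaptic vesicle precursors, had the highest level of all members, per length as well. It was at 1866 CPM in control, 2340 in hypoxia and 2425 in the T3 library. The hypoxia value was 1.25-fold the control value (1.24 to 1.27), and the ratio stayed above 1 under each scaling. Kif1b, a paralogue that carries mitochondria and vesicles, was at 1244, 1355 and 1386 CPM. Its ratio of hypoxia over control was 1.09 (1.07 to 1.11), and its log2 ratio of 0.12 turned to -0.05 with libraries scaled to equal sums. Kif1c, a more widely expressed relative, was at 24.1, 26.3 and 30.8 CPM, a ratio of 1.09 (0.963 to 1.24) that counting error alone does not separate from 1 and whose log2 value of 0.12 turned to -0.04 with equal sums. Within the Kif1 reads, the share of Kif1b was 39.7% in control (39.3 to 40.1), 36.4% in hypoxia (36.0 to 36.8) and 36.1% in the T3 library (35.8 to 36.4), lower in both hypoxic libraries than in control.

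The Kif5 genes encode the heavy chains of kinesin-1, the motor of mitochondria and many vesicles. Of these, Kif5a and Kif5c are enriched in neurons and Kif5b is found in most cell types. Kif5a was at 694, 861 and 858 CPM, and Kif5c at 1138, 1280 and 1310 CPM. Kif5b was at 201, 185 and 185 CPM. The neuronal forms were thus higher in the hypoxic libraries, by 1.24-fold for Kif5a (1.21 to 1.27) and 1.13-fold for Kif5c (1.10 to 1.15), and Kif5b lower, by 1.09-fold (1.04 to 1.14). For Kif5c the log2 ratio of 0.17 shrank to 0.00 with equal sums. The share of Kif5b in the Kif5 reads needs no scaling: it was 9.91% in control (9.63 to 10.2), 7.94% in hypoxia (7.69 to 8.21) and 7.88% in the T3 library (7.66 to 8.11).

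The Kif21 genes, motors that also restrain microtubule growth, showed the widest split among the transport paralogues. Kif21b, enriched in dendrites, was at 860, 1011 and 1033 CPM. Kif21a, found along axons, was at 126, 97.1 and 99.2 CPM. The ratio of hypoxia over control was 1.18 for Kif21b (1.15 to 1.2), while Kif21a was 1.30-fold lower (1.22 to 1.38). The share of Kif21a in the reads of this pair was 12.8% in control (12.3 to 13.2), 8.77% in hypoxia (8.38 to 9.17) and 8.76% in the T3 library (8.43 to 9.11).

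Kif3a and Kif3b form the heterodimer of kinesin-2, which serves both axonal transport and the building of cilia, and Kif3c is a neuron-rich partner of Kif3a. Kif3a was at 286, 324 and 323 CPM, Kif3b at 258, 320 and 321 CPM and Kif3c at 467, 526 and 525 CPM. All of these were higher in hypoxia with the deposited scaling, by 1.13-fold for Kif3a (1.09 to 1.17), 1.24-fold for Kif3b (1.2 to 1.3) and 1.13-fold for Kif3c (1.10 to 1.16). With equal sums Kif3a and Kif3c were both at a log2 ratio of 0.00. Of the exonic bases of Kif3c, 40.7% also lie in exons of genes on the opposite strand, and whether the counting used strand is not given in the sources used here.

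Levels of different genes can be set side by side only per length. Divided by exonic length, the control values were 200 CPM per kb for Kif1a, 159 for Kif5c, 99.2 for Kif5a, 79.9 for Kif3a and 70.7 for Kif1b. Kif21b followed at 70.6 CPM per kb, Kif3c at 63.1, Kif3b at 45.7, Kif5b at 25.2, Kif21a at 19.5 and Kif1c at 3.31. Kif1a and the neuronal Kif5 genes thus had the highest transcript levels per length, and the neighbours Kif1b and Kif21b in that order were level with each other. These lengths join all annotated exons of a gene, so an order between genes with close values is not firm.

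**Figure D2:**
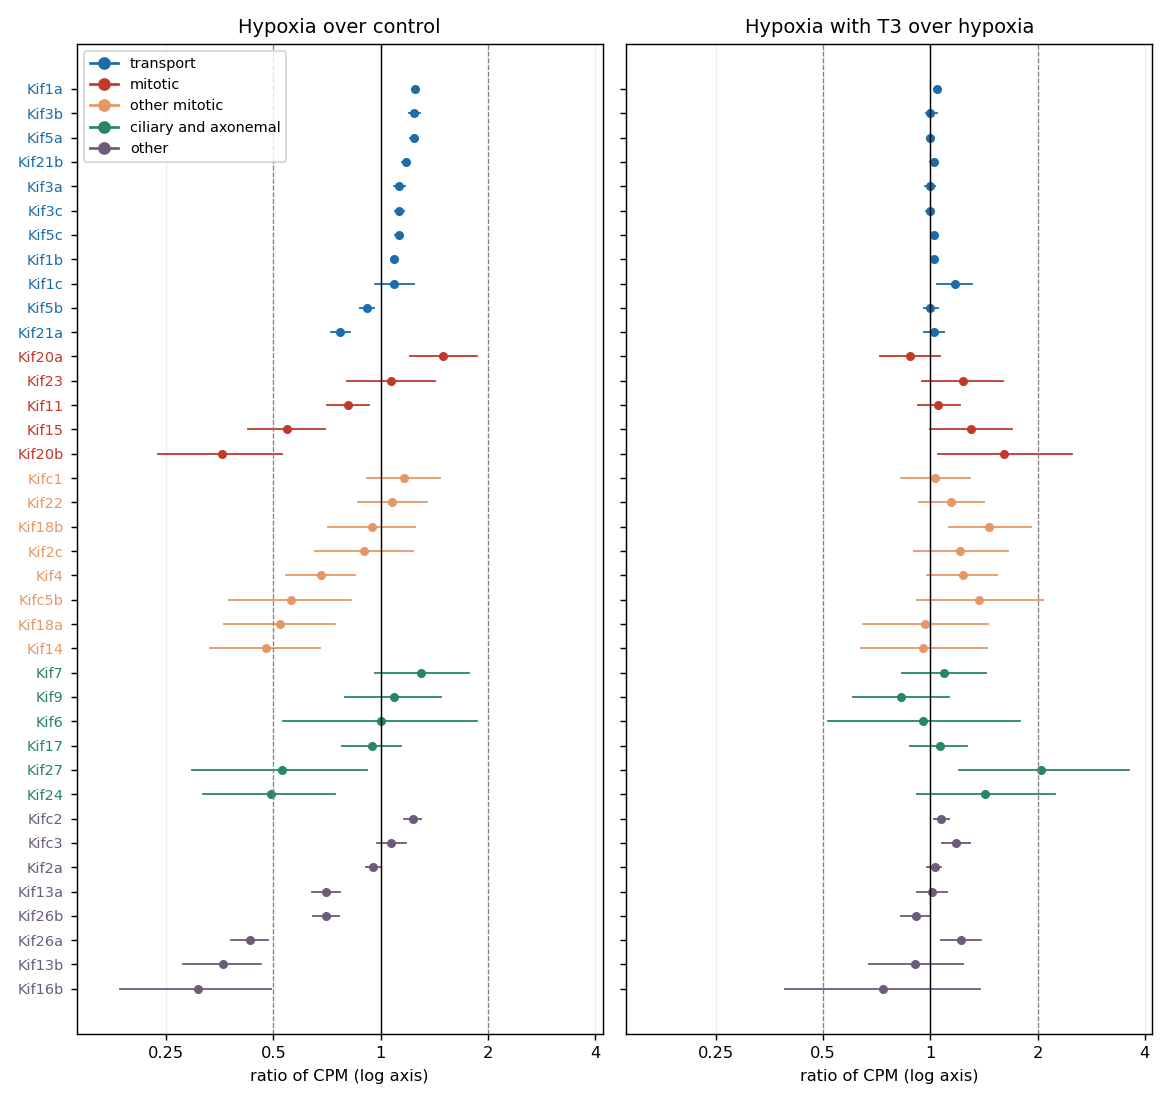
Ratios of CPM (log axis) for the 38 members compared, hypoxia over control on the left and hypoxia with T3 over hypoxia on the right; points are ratios, bars exact 95% intervals for counting error, the solid line a ratio of 1 and the dashed lines 0.5 and 2. On the left the transport motors sit between 0.770 and 1.25 and the lowest points are Kif16b, Kif20b, Kif13b and Kif26a, while on the right most points lie near 1.

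The 4 members called lower in hypoxia were Kif13b, Kif16b, Kif26a and Kif20b. Kif13b, a cargo motor of the kinesin-3 family that carries membrane proteins and a phosphoinositide-binding partner, was at 12.9 CPM in control, 4.64 in hypoxia and 4.21 in the T3 library. Kif16b, a kinesin-3 that moves early endosomes, was at 4.12, 1.27 and 0.936 CPM. In both genes the hypoxic libraries stood together, far below control. Kif13b was 2.78-fold lower in hypoxia (2.2 to 3.6) and 3.06-fold lower in the T3 library (2.42 to 3.89), and Kif16b 3.25-fold (2.03 to 5.38) and 4.41-fold lower (2.74 to 7.39). Kif16b rests on 89, 23 and 22 reads. Kif13a, the paralogue of Kif13b and a motor of recycling endosomes, was at 59.7, 42.0 and 42.3 CPM, 1.42-fold lower in hypoxia (1.30 to 1.56). The share of Kif13b in the Kif13 reads went from 17.8% in control (15.9 to 19.7) to 9.95% in hypoxia (8.02 to 12.2) and 9.05% in the T3 library (7.42 to 10.9).

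Kif26a belongs to an unusual kinesin group that binds microtubules without working as an ATP-driven motor. It was at 50.5 CPM in control, 21.7 in hypoxia and 26.4 in the T3 library. That is 2.33-fold lower in hypoxia (2.08 to 2.62) and 1.91-fold lower in the T3 library (1.73 to 2.12). Its paralogue Kif26b, which acts in cell polarity and adhesion, was at 68.0, 47.8 and 43.4 CPM, 1.42-fold lower in hypoxia (1.31 to 1.55). Kif26a took 42.6% of the reads of the pair in control (40.7 to 44.5), 31.2% in hypoxia (28.6 to 33.8) and 37.8% in the T3 library (35.5 to 40.2), so the library with T3 lay between the others.

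The promoters of the members called lower are shown, for the 3 found in the promoter table, because the hypoxia result turns on them, and that of Kif1a, the most abundant member, is set beside them. Each line gives the 250 bases before the annotated start from RefSeq (GRCm38.p6), read 5′ to 3′ on the strand of the gene, with capitals for GCGTG on either strand, the only motif searched that occurs in them. The windows are chr2:142901465-142901714 on the minus strand for Kif16b, chr12:112145958-112146207 on the plus strand for Kif26a, chr19:34922108-34922357 on the plus strand for Kif20b and chr1:93101875-93102124 on the minus strand for Kif1a. In the separate annotation used below for gene span, Kif16b starts at 142901531 and Kif1a at 93101951, inside these windows. By that annotation the last bases of both windows lie within the gene, among them the marked letters of Kif1a. Kif13b, the remaining member called lower, is named only.
Kif16b: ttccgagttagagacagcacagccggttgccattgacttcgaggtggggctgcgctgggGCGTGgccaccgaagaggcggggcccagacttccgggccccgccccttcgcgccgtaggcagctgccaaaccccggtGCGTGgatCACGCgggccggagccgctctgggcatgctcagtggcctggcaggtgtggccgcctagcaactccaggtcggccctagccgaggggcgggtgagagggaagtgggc
Kif26a: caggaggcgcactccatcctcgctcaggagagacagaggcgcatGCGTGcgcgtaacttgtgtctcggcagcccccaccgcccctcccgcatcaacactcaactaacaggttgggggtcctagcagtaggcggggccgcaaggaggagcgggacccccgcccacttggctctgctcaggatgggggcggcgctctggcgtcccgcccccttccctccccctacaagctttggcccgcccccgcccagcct
Kif20b: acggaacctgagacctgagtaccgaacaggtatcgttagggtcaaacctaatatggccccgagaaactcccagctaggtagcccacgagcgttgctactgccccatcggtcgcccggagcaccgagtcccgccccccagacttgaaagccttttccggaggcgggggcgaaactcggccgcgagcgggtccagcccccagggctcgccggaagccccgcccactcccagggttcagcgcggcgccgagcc
Kif1a: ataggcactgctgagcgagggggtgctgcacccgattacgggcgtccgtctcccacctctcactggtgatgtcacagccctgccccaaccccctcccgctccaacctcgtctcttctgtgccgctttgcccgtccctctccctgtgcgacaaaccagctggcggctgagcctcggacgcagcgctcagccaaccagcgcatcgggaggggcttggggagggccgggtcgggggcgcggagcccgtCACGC

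GCGTG and ACGTG are core letters bound by hypoxia-inducible factors. GCGTG occurred 3 times in the Kif16b window, 1 time each in those of Kif26a and Kif1a, and 0 times in that of Kif20b. Of the 33 members with a promoter in the table, 16 (48.5%) held GCGTG, beside 46.8% of the promoters of the genes compared and 28.2% of all 27025 promoters. ACGTG was in 4 (12.1%), beside 22.2% and 16.6%. All motifs were searched on both strands. Of the others, the cyclic AMP element TGACGTCA was in 2 members (6.06%, beside 3.01% of the genes compared and 1.62% of all promoters), AP-1 as TGACTCA or TGAGTCA in 0 (beside 2.53% and 4.43%), and AGGTCA, the core of thyroid hormone receptor sites, in 3 (9.09%, beside 9.80% and 13.8%). The cell cycle element TTTGAA or TTCGAA was in 8 (24.2%, beside 11.1% and 17.4%) and the CCAAT box in 16 (48.5%, beside 37.0% and 34.5%). A match is a description of letters and not a site.

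The mitotic kinesins differed in direction between hypoxia and control. Kif11, the motor that pushes spindle poles apart, was at 25.1 CPM in control, 20.3 in hypoxia and 21.4 in the T3 library, 1.24-fold lower in hypoxia (1.08 to 1.41). Kif15, which backs up Kif11 on the spindle, was at 9.73, 5.30 and 6.89 CPM, 1.84-fold lower (1.44 to 2.36). Kif20b, needed for the last cut between daughter cells and for cortical growth, was at 5.24, 1.88 and 3.02 CPM, 2.79-fold lower (1.89 to 4.22). Going the other way, Kif20a, a cytokinesis motor of the central spindle, was at 7.28, 10.9 and 9.57 CPM, 1.5-fold higher (1.21 to 1.87). With 1 CPM added it was short of 1.5-fold, at a log2 ratio of 0.53. Kif23, a subunit of the centralspindlin complex, was at 5.01, 5.36 and 6.59 CPM, a ratio of 1.07 (0.805 to 1.42) that is not separable from 1 at 97 to 155 reads a library. The median log2 ratio of the 5 was -0.29, with 1 called lower and 0 higher, where 4.92% of all genes compared were lower and 1.99% higher. Kif20b took 41.9% of the reads of the Kif20 pair in control (35.9 to 48.0), 14.7% in hypoxia (10.4 to 19.9) and 24% in the T3 library (19.2 to 29.3). Of the exonic bases of Kif20a, 29.3% also lie in exons of Cdc23 on the opposite strand.

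The other mitotic members ranged from -0.84 to 0.19 on the log2 scale of hypoxia over control, with a median of -0.31. Kif14, a cytokinesis motor, was at 5.33, 2.54 and 2.42 CPM, 2.1-fold lower in hypoxia (1.48 to 3.02) but short of the rule once 1 CPM was added. Kif18a, which aligns chromosomes, was at 4.96, 2.60 and 2.51 CPM, 1.91-fold lower (1.34 to 2.75), while its paralogue Kif18b was at 5.38, 5.08 and 7.44 CPM. Kif4, a chromosome-bound motor, was at 10.6, 7.18 and 8.80 CPM, 1.47-fold lower (1.18 to 1.84). Exons of Pdzd11 on the opposite strand cover 15.1% of the exonic bases of Kif4. Among those near a ratio of 1 were Kif22, another chromosome-bound motor, at 7.92, 8.56 and 9.78 CPM, and the microtubule depolymerase Kif2c at 4.50, 4.03 and 4.89 CPM. Kifc1, a minus-end spindle motor, was at 6.72, 7.79 and 8.04 CPM and its close relative Kifc5b at 3.94, 2.21 and 3.02 CPM. Of the 31-base words of Kifc5b transcripts, 49.9% also occur in Kifc1, so reads may not be assigned firmly between them, and their sum was 10.7 CPM in control and 11.1 CPM in the T3 library, with a ratio of 0.938 in hypoxia (0.768 to 1.14).

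Of 26 genes of mitosis and proliferation outside the Kif symbols, 20 had a log2 ratio of hypoxia to control below 0, where 5770 of 12692 genes compared did. Their median was -0.29. At 2-fold 0 were called in either direction, where 4.92% of all genes compared were lower and 1.99% higher. At 1.5-fold 6 of 26 (23.1%) were lower and 1 higher, where 13.8% of all genes compared were lower and 8.46% higher. Mki67, the proliferation antigen, was at 69.4, 34.8 and 41.8 CPM, and Cenpe, the kinetochore kinesin whose symbol falls outside the rule, at 13.9, 6.63 and 7.27 CPM. Pcna, the sliding clamp of DNA replication, was in contrast at 55.4, 103 and 108 CPM, and Aurka, a spindle pole kinase, at 4.91, 7.84 and 8.67 CPM. The 13 mitotic kinesins of both classes summed to 102, 83.8 and 94.4 CPM, beside sums of 297, 154 and 162 CPM for the oligodendrocyte lineage markers, 130, 153 and 157 CPM for progenitor markers and 256, 289 and 286 CPM for astrocyte markers. Of the 5 progenitor markers Nes was at 70.5, 91.2 and 97.6 CPM and Sox2 at 42.2, 52.4 and 50.4 CPM, while Hes5 was called lower, at 10.2, 1.38 and 1.40 CPM. What part other cell types have in the mitotic values was not tested.

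Gene span, the distance between the outermost exon bases, went with the log2 ratio of hypoxia to control. Over all 12584 genes compared with an annotated span, Spearman's rho of span with that log2 ratio was -0.51. It was -0.43 over the 38 members compared, -0.78 over the 13 mitotic members of both classes and -0.16 over the 11 transport members. These are correlations across genes of the same libraries, given as description. Among the mitotic members, Kif14, Kif15, Kif18a, Kif20b and Kif4 span 65.2, 67.7, 61.0, 53.4 and 101 kb, and their log2 ratios lay between -1.12 and -0.50. Kif20a, Kif22, Kifc1, Kif18b and Kif2c span 8.66, 14.7, 15, 19.6 and 23.0 kb, and theirs lay between -0.13 and 0.53, with Kif22 at 0.10 by the deposited scaling and -0.06 with equal sums. Kif23 spans 30.9 kb and Kif11 45.5 kb, with log2 ratios of 0.08 (-0.06 with equal sums) and -0.29. Kifc5b, at 15.5 kb and a log2 ratio of -0.62, did not follow the order. Reads may not be assigned firmly between Kifc5b and Kifc1, whose sum had a ratio of 0.938 (0.768 to 1.14). Neither single value is firm, and both enter the rho of the mitotic members.

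Of the genes compared that span 100 kb or more, 1544 of 2019 had a log2 ratio below 0, at a median of -0.36, and 17.4% were called lower. Kif1b (131 kb) and Kif5c (155 kb) are of this size, with log2 ratios of 0.12 and 0.17 by the deposited scaling and -0.05 and 0.00 with equal sums, and Kif21a (117 kb) was at -0.37. Kif13b (chromosome 14, 64647265 to 64809617, plus strand, mm10) spans 162 kb and Kif16b (chromosome 2, 142617474 to 142901531, minus strand) 284 kb, at log2 ratios of -1.30 and -1.17. Kif6 spans 295 kb and stood at 0.00, or -0.09 with equal sums. It rests on 25 reads in control and 21 in hypoxia, with a wide interval of the ratio (0.533 to 1.86). Kif26a (chromosome 12, 112146208 to 112181747, plus strand) was called lower with a span of only 35.5 kb, in a range of 25 to 50 kb where 2.2% of the genes compared were called lower. Level also went with the ratio, with a rho between mean CPM and log2 ratio of 0.56 over the 38 members and 0.24 over all genes, and the part of span and of level in these ratios was not tested.

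**Figure D3:**
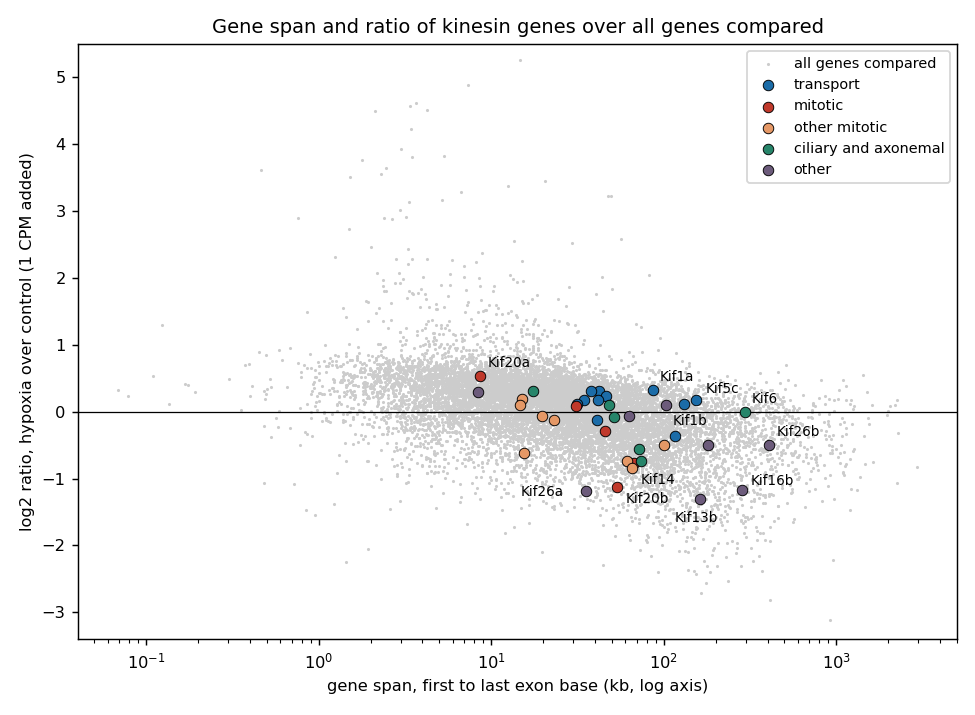
Log2 ratio of hypoxia over control (1 CPM added) against gene span in kb (log axis), with grey points for the 12584 genes compared that have a span and coloured points for the 38 kinesin genes by class. Grey points drift downward to the right (rho -0.51), the long mitotic genes and Kif13b and Kif16b lie low, and Kif1b and Kif5c lie above 0 by the deposited scaling but not with equal sums.

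Among the ciliary and axonemal members 6 of 7 were compared and 0 were called in hypoxia, where 4.92% of all genes compared were lower and 1.99% higher. Kif17, a dendritic carrier of NMDA receptor subunits that also enters cilia, was at 12.0 CPM in control, 11.3 in hypoxia and 11.9 in the T3 library, level within counting error. Kif7, the ciliary scaffold of Hedgehog signalling, was at 3.99, 5.19 and 5.66 CPM, a ratio of hypoxia over control of 1.30 (0.962 to 1.77), and 20.3% of its exonic bases lie in exons on the opposite strand. Kif24, a centriolar kinesin that restrains ciliation, was at 3.71, 1.82 and 2.59 CPM, 2.03-fold lower in hypoxia (1.34 to 3.15) but short of the rule with 1 CPM added. Kif27, a relative of Kif7, was at 2.09, 1.10 and 2.25 CPM. Its hypoxia value was low against both others, on 20 reads against 45 in control and 53 in the T3 library. Kif9 at 4.17, 4.53 and 3.74 CPM and Kif6 at 1.16, 1.16 and 1.11 CPM, genes of motile cilia, were level within counting error. Kif19a, which trims ciliary length, had 6, 2 and 12 reads and was not compared.

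Other neuronal members were near their control values. Kif2a, a microtubule depolymerase that limits axon branches, was at 193, 183 and 188 CPM, a ratio of hypoxia over control of 0.952 (0.909 to 0.996). Kifc2, a minus-end motor of dendrites, was at 110, 135 and 145 CPM, 1.23-fold higher in hypoxia (1.16 to 1.30). Kifc3, another minus-end motor, was at 44.3, 47.6 and 56.1 CPM, a ratio of 1.07 (0.979 to 1.18) whose log2 value of 0.10 turned to -0.07 with equal sums. For Kif2a 19.2% and for Kifc3 27.5% of exonic bases overlap exons of genes on the opposite strand. Kif12, Kif2b and the pseudogene Kif4-ps had 0 reads in all 3 libraries, which allows up to 0.139 CPM in control, 0.166 in hypoxia and 0.128 in the T3 library.

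**Figure D4:**
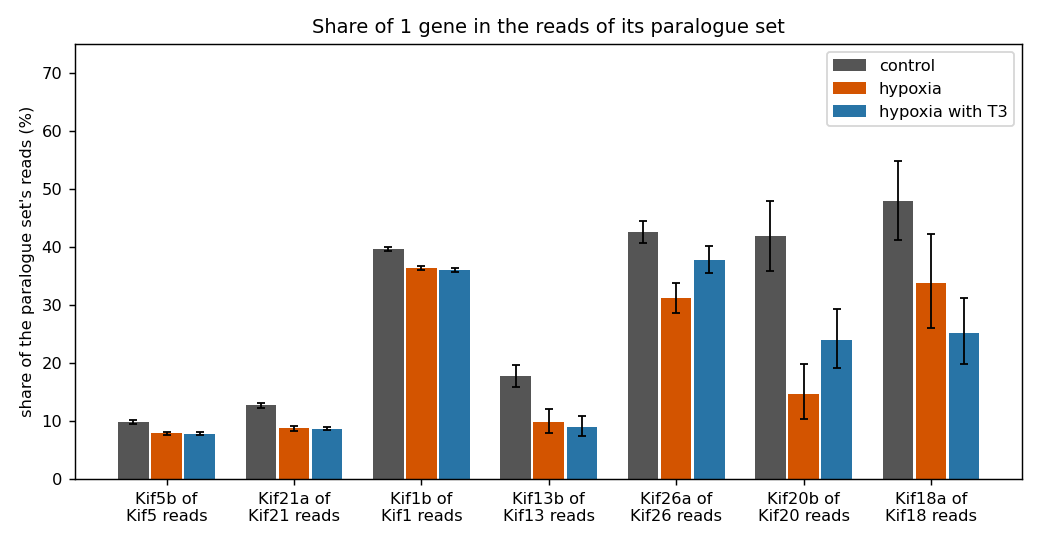
Share (%) of 1 gene in the summed reads of its paralogue set for 7 sets, with bars for control, hypoxia and the T3 library and error bars for exact 95% Clopper-Pearson intervals (counting error only). The shares of Kif5b, Kif21a, Kif1b and Kif13b are lower in both hypoxic libraries than in control. Those of Kif26a and Kif20b are lowest in hypoxia, with the T3 library between it and control, and that of Kif18a is lowest in the T3 library. For Kif20b and Kif18a the intervals of hypoxia and the T3 library overlap. Kif18a itself was at 2.60 CPM in hypoxia and 2.51 with T3, and Kif18b at 5.08 and 7.44 CPM.

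The T3 library and the hypoxia library differed little in kinesin transcripts. Comparing the T3 library with hypoxia, 0 of 38 members were at least 2-fold higher, where 0.126% of all genes compared were, and 0 of 38 at least 2-fold lower, where 0.0630% were. The 11 transport members ranged from -0.01 to 0.22 on the log2 scale at a median of 0.03. Kif1c, at 26.3 CPM in hypoxia and 30.8 CPM with T3, held the high end with a ratio of 1.17 (1.04 to 1.31), and Kif5a and Kif5c had ratios of 0.997 (0.977 to 1.02) and 1.02 (1.01 to 1.04). Such intervals are narrow where many reads stand behind a gene, and they say nothing about variation between cultures.

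Outside the transport group the log2 ratio of the T3 library to hypoxia was above 0 for 19 of 27 members compared. Among all genes compared it was above 0 for 6863 of 12692. Of the 13 mitotic members of both classes, 10 had a log2 ratio above 0, at a median of 0.23, and of the 26 other proliferation genes 21 did, at a median of 0.12, beside a median of 0.01 over all genes. Kif20b had a ratio of 1.61 (1.05 to 2.5), Kif18b of 1.46 (1.13 to 1.91) and Kif15 of 1.30 (1.0 to 1.7). Kif27 was 2.04-fold higher (1.2 to 3.6) before 1 CPM was added, on 20 and 53 reads, and was the 1 member at least 1.5-fold higher by the rule, where 0.717% of all genes compared were, while 0 were 1.5-fold lower, where 0.276% were. Kif26a had a ratio of 1.22 (1.07 to 1.39), and Kif26b was 1.10-fold lower (1.0 to 1.21). Kifc3, with a ratio of 1.18 (1.08 to 1.29), and Kifc2, with 1.07 (1.02 to 1.13), were a little higher with T3. This comparison and that of hypoxia over control share the 1 hypoxia library. A gene low in that library alone is lower than control and also higher with T3, so opposite directions are not separate evidence.

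Against control, the T3 library is compared with the same control library as hypoxia, so likeness of the 2 comparisons is not separate evidence. Of 38 members, 2 (5.26%) were at least 2-fold lower, where 4.59% of all genes compared were, namely Kif13b and Kif16b, and 0 were at least 2-fold higher, where 2.06% were. At 1.5-fold, 7 of 38 (18.4%) were lower, where 13.1% of all genes compared were, and 0 were higher, where 8.73% were. Kif26a and Kif20b, called in hypoxia, were at log2 ratios of -0.91 and -0.63 here. The transport members had a median log2 ratio of 0.20, beside 0.08 over all genes. By the deposited scaling 9 of 11 were above 0, where 7162 of 12692 genes compared were, and with equal sums 6 of 11 were.

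Light chains and the Kif3-associated subunit are the partners of the transport motors. Klc1, the main neuronal light chain through which kinesin-1 holds cargo, was at 643, 857 and 856 CPM, 1.33-fold higher in hypoxia (1.30 to 1.36). Kifap3, the subunit that joins the Kif3 dimer to cargo, was at 407, 509 and 512 CPM, 1.25-fold higher (1.21 to 1.29), close to Kif3b. Klc2 was at 126, 150 and 147 CPM and Klc4 at 14.5, 14.9 and 14.9 CPM, while Klc3 stayed below the filter at 0.695, 0.276 and 0.340 CPM. The 4 genes compared had a median log2 ratio of hypoxia to control of 0.29, beside 0.05 over all genes. At 2-fold 0 were called, where 4.92% of all genes compared were lower and 1.99% higher.

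Of 23 cargo adaptors of kinesins, 0 were called in hypoxia, beside the same 4.92% lower and 1.99% higher of all genes compared. Their median log2 ratio of hypoxia to control was 0.12, beside 0.05 over all genes. The medians of partners, adaptors and dynein genes are by the deposited scaling only. Equal sums moved the median of all genes to -0.10 and that of the transport kinesins from 0.17 to 0.00. Hap1 and Mapk8ip1, scaffolds that link kinesin-1 to vesicles, were highest, at 42.1, 59.2 and 60.2 CPM and at 369, 512 and 519 CPM. Trak2, the adaptor that hooks mitochondria to kinesin-1, was lowest at 103, 61.5 and 79.0 CPM, 1.67-fold lower in hypoxia (1.55 to 1.79) and 1.29-fold higher with T3 than without it (1.19 to 1.39). Both Trak2 ratios use the same hypoxia library. Spag9, a relative of the JIP scaffolds, was at 426, 293 and 306 CPM. The return motor was compared in the same way. Of 27 dynein and dynactin genes 22 had a log2 ratio above 0, where 6922 of 12692 genes compared did. Their median was 0.31, beside 0.05 over all genes. At 2-fold 1 was called lower and 1 higher (3.70% each), beside 4.92% and 1.99% of all genes compared. Bicd1, an adaptor of dynein, was the lower one, at 60.0, 23.6 and 25 CPM, and Dynlt1f, a light chain gene at low level, the higher one, at 1.2, 4.36 and 2.98 CPM. Dynlt1f, and Dync1h1, the dynein heavy chain, are named after their values were seen. Dync1h1 was at 1264, 1750 and 1812 CPM, 1.38-fold higher in hypoxia (1.36 to 1.41), beside 1.25-fold for Kif1a and 1.13-fold for Kif5c.

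The authors' deposited tables of hypoxia over control and of hypoxia with T3 over control hold 38 members each. In the authors' deposited tables the lowest false discovery rate of a member was 0.417 in the former and 0.123 in the latter, both for Kif16b, at signed folds of -3.38 and -4.61 (negative for a lower value). None of the 38 was below 0.05 in either of the authors' deposited tables, where 85 and 104 of 13152 genes were, from 1 library on each side; which test was used is not given in the sources used here.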

How the data were processed

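RNA was sequenced from 1 library per group (KAPA strand RNA-seq kit, per the labels' protocols). Build mm10 and the tools RSEM 1.2.15, Bowtie2 2.1.0 and bcl2fastq 2.17 are named, without roles, per the submitters' processing notes. The authors deposited CPM values scaled by TMM, a trimmed mean of log ratios, as named by the table. Dividing each column by its smallest step gave whole reads (counts) for 100% of the deposited values to within 0.01, with 1 read worth 0.0463, 0.0552 and 0.0425 CPM. Library CPM summed to 837997, 945496 and 958205. With 1 library a group no count test was run. The authors also deposited 2 comparison tables with signed folds, p-values and false discovery rates, per the file headers, and value columns that are the same reads on another scale, treated as signal in the deposited tables and not used. The kept genes of those tables and their test are not given in the sources used here.

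Log2 ratios used CPM plus 1, which understates the change of low genes, over genes whose mean reached 1 CPM, and the call was at 2-fold. A count of 0 was read as up to 3 reads. Intervals and floors cover counting error only, and the labels name no molecular identifiers that would mark PCR copies. Spans, exonic lengths and overlaps came from GENCODE M21 (GRCm38, the assembly of mm10) for all 42 members and 99.1% of genes compared, and promoters from RefSeq for 33 members. Named by rule were all transport and mitotic members, other members called or among the 10 highest of the rest, and in each list of other genes up to 4 called ones with a mean of at least 5 CPM or, with none, the 2 highest and 2 lowest; further members are named to account for all. Members, lists and classes were chosen with earlier results of these data known, and the motifs after the files were read. The procedure was tested on simulated data with set folds and counting error only. Such data hold no variation between cultures, so the test checks the calculation and not the results. Alternatives were another added value, filter, scaling and fold, and the authors' folds. Software was scipy 1.17.1, pandas 2.3.3 and numpy 2.4.6 under Python 3.11.15, with matplotlib 3.10.9 for plots.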

Additional observations from a re-analysis of the deposited data

How the results depend on the processing

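The count of 4 members lower in hypoxia than in control was 1 with 5 CPM added, 2 when the mean had to reach 5 CPM, 6 from the authors' deposited table (Kif14 and Kif24 joined), 4 with 0.25 CPM added and 9 at 1.5-fold (23.7% of 38, where 13.8% of all genes compared were). The median log2 ratio of the transport kinesins in that comparison, 0.17, was 0.00 with libraries scaled to equal sums, 0.11 with median-of-ratios scaling and 0.11 from the authors' deposited table. For the T3 library over control, the count of 2 lower members was 3 with 0.25 CPM added (Kif14 joined), 0 with 5 CPM added, 1 when the mean had to reach 5 CPM, 4 with equal sums, 5 from the authors' deposited table and 7 at 1.5-fold, and the transport median of 0.20 was 0.01, 0.12 and 0.13 under equal sums, median-of-ratios scaling and the authors' deposited table. For the T3 library over hypoxia, 1 member was higher at 1.5-fold. The lower folds with 5 CPM added and the smaller counts under the stricter filter follow from how those settings are built, and for the scalings and the authors' deposited table the cause was not tested. No called member changed sign under any of these settings. With equal sums all genes split into 188 higher and 949 lower in hypoxia, against 252 and 624. For the T3 library over control they split into 196 higher and 898 lower, against 262 and 582. The rise from 2 to 4 members thus came with a rise over all genes. At 1.5-fold, 13.1% of all genes compared were lower there. Shares of all genes with another added value or filter, or from the authors' folds, are not given here, so those member counts stand without a background. The authors' deposited tables give no fold for the T3 library over hypoxia, so that alternative has no value there. No paired analysis was possible because each group has 1 library. Depth limits the members below about 10 CPM, whose intervals are wide.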
